A study of Mus musculus with 6 samples.

Results

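The 10 genes described here mark the position of a cell between an epithelial and a mesenchymal state, and they are named by symbol. The choice was made with earlier results of these data known. They are the transcription factors Snai1, Snai2, Twist1, Zeb1 and Zeb2, the epithelial surface genes Cdh1 and Epcam, and the mesenchymal genes Cdh2, Vim and Fn1. All 10 were listed among the 16081 genes of the deposited tables, and 7 of them held enough reads to be tested among 11552 genes. The RNA came from the Lewis line of mouse lung carcinoma, grown in culture and exposed for 24 hours to the vehicle DMSO or to SD70, an inhibitor of the histone demethylase KDM4C, and was measured by RNA-seq. Each group held 3 samples of this 1 cell line, and no other genotype or treatment entered the comparison. The SD70 dose of the RNA-seq experiment is not given in the sources used here. The study's methods say in general that experiments were repeated independently, but the labels do not say that these samples of a group came from separate cultures, so the p-values below measure the spread between these samples, which may be technical.

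Epithelial cells are held to each other by E-cadherin, the product of Cdh1, and carry the adhesion molecule EpCAM and keratin filaments. In the epithelial-mesenchymal transition (EMT) these are lost, and N-cadherin (Cdh2), the filament protein vimentin (Vim) and the matrix protein fibronectin (Fn1) appear in their place. The zinc finger proteins Snail (Snai1), Slug (Snai2), ZEB1 and ZEB2 bind a DNA element called the E-box and repress epithelial genes, and the basic helix-loop-helix factor Twist1 acts in the same programme. In carcinomas the programme is known for its part in invasion and in resistance to drugs.

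Snail, Slug and the ZEB factors recognise the E-box letters CAGGTG, which read as CACCTG on the opposite strand, so these letters were looked for in the 250 bases before the RefSeq starts of the members (assembly GRCm38.p6). Windows were used for 5 members, Snai1, Twist1, Zeb2, Epcam and Vim, and none for Snai2, Zeb1, Cdh1, Cdh2 and Fn1. Epcam held 2 matches, 187 and 19 bases before its start, and Snai1 held 1 match, 126 bases before its start. Over all 32851 windows of this length in the table, 17.2% held at least 1 match on either strand and 2.06% held at least 2. These matches describe letters in the reference and are not measured binding. The 2 windows that held a match are given below on the plus strand, 5′ to 3′, with the matches in capitals, Epcam at chr17:87635729-87635978 and Snai1 at chr2:167537945-167538194.
Epcam: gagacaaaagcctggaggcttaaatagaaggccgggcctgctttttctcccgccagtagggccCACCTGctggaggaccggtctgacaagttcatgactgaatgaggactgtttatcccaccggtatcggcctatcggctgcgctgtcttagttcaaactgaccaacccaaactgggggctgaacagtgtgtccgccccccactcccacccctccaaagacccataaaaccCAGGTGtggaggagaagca
Snai1: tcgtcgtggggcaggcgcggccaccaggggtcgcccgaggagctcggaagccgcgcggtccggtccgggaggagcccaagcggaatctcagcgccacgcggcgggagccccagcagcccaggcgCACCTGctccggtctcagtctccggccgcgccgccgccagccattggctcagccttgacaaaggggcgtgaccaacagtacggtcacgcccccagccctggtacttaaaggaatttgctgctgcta

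Lewis cells in DMSO carried abundant Vim mRNA, less Fn1 mRNA, all 5 transcription factors and almost no Cdh1, Epcam or Cdh2 mRNA. Levels of different genes were compared as FPKM, a value per unit of gene length and of sequencing depth. Vim stood at 2489 ± 138 FPKM (SD, n = 3) in DMSO, the 22nd highest level of the 16081 listed genes. Fn1 followed at 73.6 ± 9.06 FPKM, 33.8-fold below Vim and the 1129th highest level of the listed genes. Twist1 had the highest level of the 5 factors, at 33.7 ± 0.847 FPKM, followed by Snai2 at 24.8 ± 0.746, Zeb1 at 17.3 ± 0.482, Zeb2 at 12.1 ± 0.759 and Snai1 at 9.20 ± 0.298 FPKM. In this order, from Vim down to Snai1, no gene's range over the 3 DMSO samples overlapped that of its neighbour. With SD70 the order became Vim, Snai2, Fn1, Zeb1, Twist1, Zeb2 and Snai1, so Snai2 went from the fourth to the second place. Zeb1 (25.14 to 26.86 FPKM) and Twist1 (23.27 to 26.58 FPKM) overlapped with SD70, so their order there is not separated beyond the spread of the samples.

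**Figure D1:**
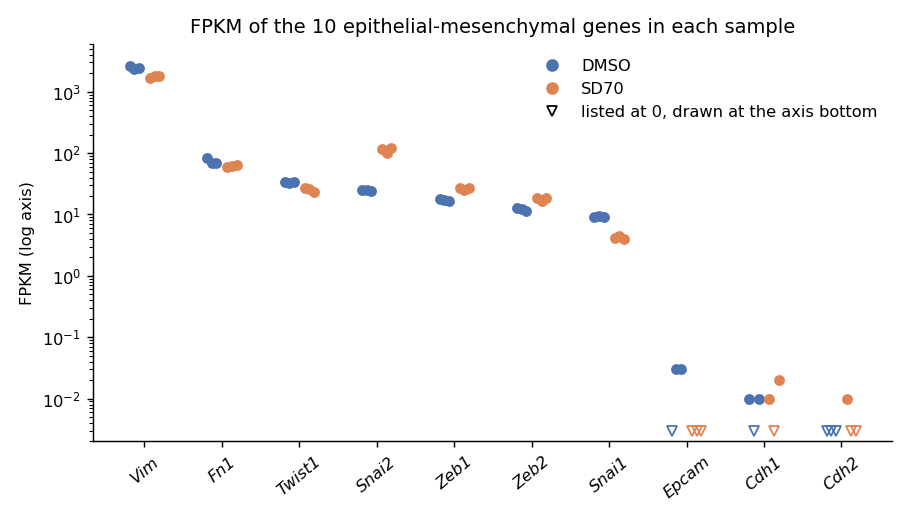
FPKM (log axis) of the 10 genes in each of the 3 DMSO and 3 SD70 samples, 1 point per sample, in the order of their DMSO means. Vim lies at 1677 FPKM or above in every sample, the 5 factors and Fn1 lie between 3.97 and 122 FPKM, and Epcam, Cdh1 and Cdh2 lie at or below 0.03 FPKM, with values of 0 drawn as open triangles at the bottom of the axis.

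The epithelial surface genes and Cdh2 were near the limit of detection in both groups. Cdh1 (NCBI Gene 12550, chr8:106603350-106670247), the adherens junction cadherin, held 1, 0 and 1 counts in DMSO samples 1, 2 and 3 and 1, 0 and 1 counts in SD70 samples 1, 2 and 3. Epcam (Gene 17075, chr17:87635979-87651127) held 0, 1 and 1 counts in DMSO and 0 in each SD70 sample. Cdh2 (Gene 12558, chr18:16588877-16809246), the cadherin usually gained in EMT, held 0 in each DMSO sample and 1, 0 and 0 counts in SD70. No sample of the 6 thus held more than 1 count of any of the 3 cadherin or EpCAM genes. A floor of 3 counts corresponds to between 0.176 and 0.196 CPM (counts scaled by the total of the sample) in these samples, and all values of the 3 genes lay under it. The summed Cdh1 count was 2 in each group, with an exact Poisson 95% interval from 0.242 to 7.22 that covers counting error only. Epcam summed to 2 in DMSO (0.242 to 7.22) and to 0 in SD70 (upper limit 3.69), and Cdh2 to 0 in DMSO (upper limit 3.69) and 1 in SD70 (0.0253 to 5.57). The upper limits for SD70 correspond to 0.148 CPM for Cdh1, 0.0757 CPM for Epcam and 0.114 CPM for Cdh2. In edgeR's test of all genes with at least 1 count, the adjusted p was 0.978, 0.310 and 0.472 for these genes. Differences within these limits could not be resolved at this depth, and no fold change is given for these 3 genes.

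All 7 tested members passed edgeR's quasi-likelihood test at an adjusted p-value under 0.01 between SD70 and DMSO. Snai2, Zeb1 and Zeb2 rose, and Snai1, Twist1, Vim and Fn1 fell. Of all 11552 genes tested, 25.8% passed as higher with SD70 and 24.2% as lower, so 3 and 4 of 7 members are to be read against a background in which 49.9% of genes passed. With a further minimum of 1 on the absolute log2 fold change, Snai2 alone was left among the members that rose and Snai1 alone among those that fell, while 3.29% of all genes tested were left as higher and 2.61% as lower. The 3 SD70 samples did not overlap the 3 DMSO samples for any of the 7 genes, which was also so for 64.4% of all genes tested. The median absolute log2 fold change was 0.59 over the 7 members and 0.25 over all genes tested, and the median signed change was -0.23 over the 7. An exact two-sided permutation test of 3 against 3 samples gave p = 0.1 for each of the 7, the smallest p this design allows.

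**Figure D2:**
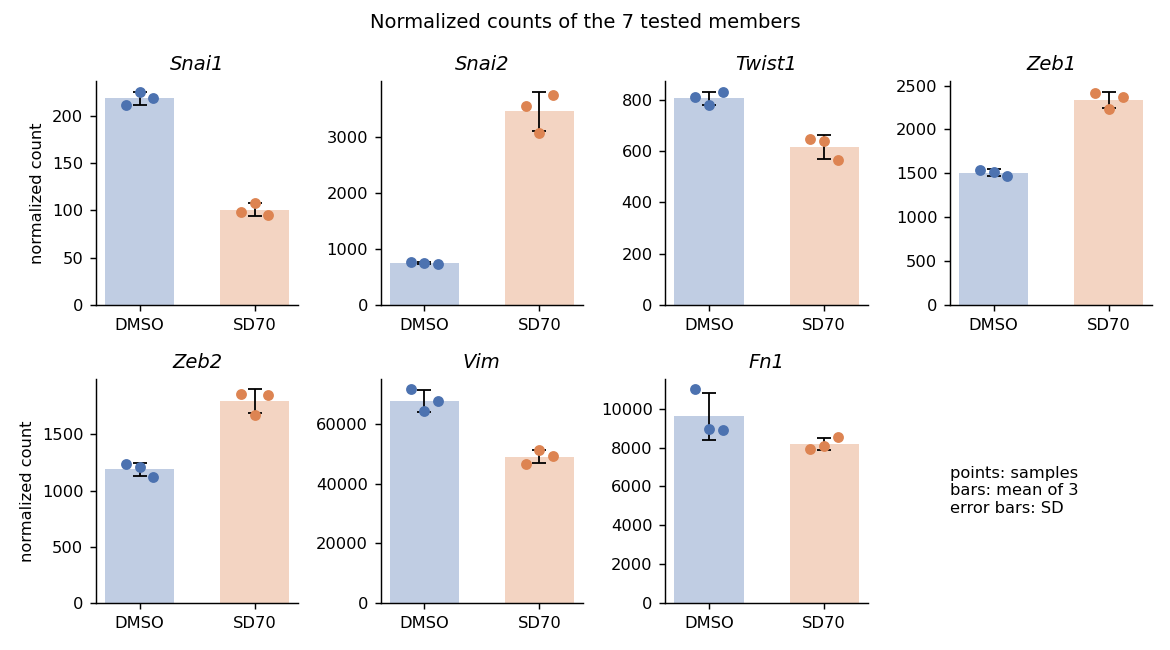
Normalized counts (linear axes from 0) of the 7 tested members, with 1 point per sample, bars at the mean of 3 samples and error bars of 1 SD. Snai2, Zeb1 and Zeb2 are higher in each SD70 sample than in any DMSO sample and Snai1, Twist1, Vim and Fn1 lower, and for Fn1 the highest SD70 sample (8535) lies close to the lowest DMSO sample (8876).

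The 2 Snail family genes moved in opposite directions. Snai2 (Gene 20583, chr16:14705852-14709395), which encodes Slug, had normalized counts of 761, 758 and 729 in DMSO samples 1 to 3 and 3552, 3065 and 3742 in SD70 samples 1 to 3. The lowest SD70 sample was thus far above the highest DMSO sample. The mean went from 749 ± 17.7 to 3453 ± 349 (SD, n = 3), a 4.61-fold rise with a log2 fold change of 2.20 (SE 0.0641, edgeR adjusted p = 3.45e-23), which was the 54th largest rise among the genes tested. Spread between the samples was also wider with SD70, with a coefficient of variation of 10.1% against 2.36% in DMSO.

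Snai1 (Gene 20613, chr2:167538195-167542814), which encodes Snail and whose upstream window is printed above, had normalized counts of 211, 225 and 219 in DMSO and 98.4, 108 and 95.7 in SD70. Every SD70 sample lay below every DMSO sample. Its mean fell from 218 ± 6.93 to 101 ± 6.59 (SD, n = 3), a 2.16-fold fall with a log2 fold change of -1.11 (SE 0.112, edgeR adjusted p = 1.72e-10). On the log2(FPKM + 1) scale, which understates changes of low genes, the change was -0.98 and did not reach the fold minimum. The ratio of Snai2 to Snai1 FPKM was 2.83, 2.65 and 2.63 in DMSO samples 1 to 3 and reached 28.3, 22.3 and 30.7 in SD70 samples 1 to 3. It differed by 3.31 on the log2 scale without overlap (exact permutation p = 0.1).

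Both ZEB genes rose. Zeb1 (Gene 21417, chr18:5591327-5775468) had normalized counts of 1544, 1517 and 1469 in DMSO and 2413, 2238 and 2366 in SD70. The groups did not overlap, and the mean rose 1.55-fold from 1510 ± 38.1 to 2339 ± 90.5 (SD, n = 3, log2 fold change 0.63, SE 0.0530, edgeR adjusted p = 2.10e-12). Zeb2 (Gene 24136, chr2:44983512-45117442) had normalized counts of 1235, 1208 and 1125 in DMSO and 1858, 1671 and 1853 in SD70. These did not overlap either, and the mean rose 1.51-fold from 1189 ± 57.3 to 1794 ± 106 (SD, n = 3, log2 fold change 0.59, SE 0.0575, edgeR adjusted p = 6.91e-11). The Zeb1 to Zeb2 FPKM ratio was 1.43 ± 0.0517 in DMSO and 1.47 ± 0.0407 in SD70, with overlapping samples and an exact permutation p of 0.4. Whether reads were counted by strand is not given in the sources used here, so reads of Zeb2 and of its antisense neighbour Zeb2os could not be told apart.

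Twist1 (Gene 22160, chr12:33957671-33959831) had normalized counts of 810, 780 and 830 in DMSO and 648, 638 and 564 in SD70. The SD70 samples all lay below the DMSO samples, SD70 sample 3 lowest. The mean fell 1.31-fold from 806 ± 25.0 to 617 ± 45.7 (SD, n = 3, log2 fold change -0.39, SE 0.0664, edgeR adjusted p = 6.72e-06). Twist2, the closest relative of Twist1 and no member of the group, had normalized counts of 1629, 1671 and 1759 in DMSO and 2862, 2953 and 3185 in SD70. It rose 1.78-fold (log2 fold change 0.83, SE 0.0537, edgeR adjusted p = 2.46e-15). Twist2 mRNA was already the higher of the pair per length in DMSO, at 2.62 ± 0.0842 times the Twist1 FPKM, and stood at 6.15 ± 0.831 times with SD70 (n = 3).

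The 5 factors summed to 97.2 ± 1.62 FPKM in DMSO and 186 ± 12.3 FPKM in SD70 (SD, n = 3), and their proportions changed. Snai2 made up 25.6%, 25.9% and 25.1% of the sum in DMSO and 60.2%, 57.9% and 62.7% in SD70. Twist1, the leading factor in DMSO at 34.7% ± 1.18, made up 13.7% ± 1.63 with SD70. Snai1 went from 9.47% ± 0.368 to 2.26% ± 0.300. Zeb1 went from 17.8% ± 0.228 to 14.2% ± 0.455 and Zeb2 from 12.4% ± 0.581 to 9.61% ± 0.113, although the FPKM of both was higher with SD70. Shares sum to the whole in each sample, so the Snai2 rise alone lowers the other shares. In bulk RNA, a change in the number of cells that hold an mRNA and a change in its amount per cell cannot be told apart, here or in the other results.

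**Figure D3:**
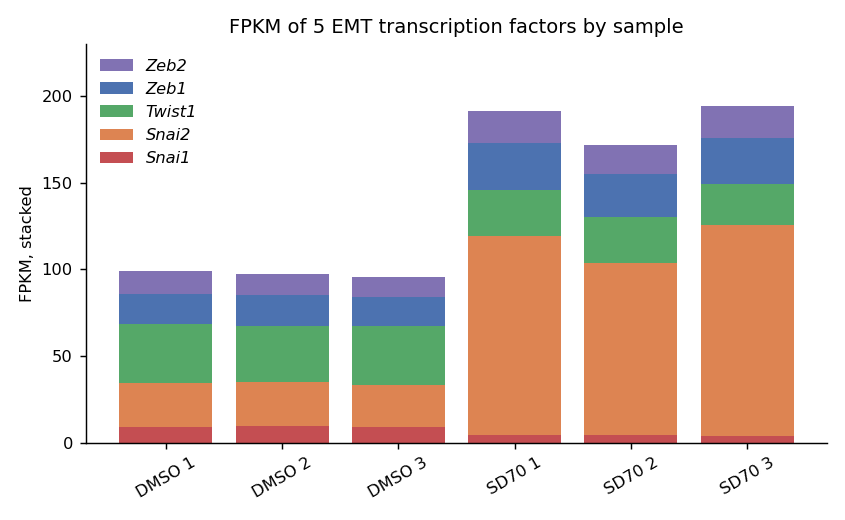
Stacked FPKM of Snai1, Snai2, Twist1, Zeb1 and Zeb2 in each sample, with the height of each bar giving the sum. The sums lie between 95.5 and 98.7 FPKM for DMSO and between 172 and 194 FPKM for SD70, and Snai2 is the widest band in each SD70 sample.

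Both detected mesenchymal structural genes fell, by small factors. Vim (Gene 22352, chr2:13574311-13582826), an intermediate filament gene, stood at 2639, 2367 and 2460 FPKM in DMSO and 1677, 1837 and 1781 FPKM in SD70. No SD70 sample reached the lowest DMSO sample. Its normalized count fell 1.38-fold (log2 fold change -0.47, SE 0.050, edgeR adjusted p = 6.65e-10), and at 1765 ± 81.1 FPKM (n = 3) it still had the highest level of the 10 genes with SD70.

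Fn1 (Gene 14268, chr1:71585473-71653280), which encodes fibronectin, had normalized counts of 10991, 8961 and 8876 in DMSO and 7915, 8083 and 8535 in SD70. DMSO sample 1 was well above the other 2 DMSO samples, which lay close to SD70 sample 3. The mean went from 9609 ± 1197 to 8178 ± 320 (SD, n = 3, log2 fold change -0.23, SE 0.0686, edgeR adjusted p = 0.00767). This was the smallest change of the 7 and the only one of the 7 whose call was lost in an alternative. Without DMSO sample 1 the log2 fold change was -0.13 (edgeR adjusted p = 0.0455), and without SD70 samples 1, 2 or 3 the edgeR adjusted p was 0.0906, 0.0472 or 0.0109. DESeq2's Wald test gave an adjusted p of 0.0619. The direction was downward in all of these.

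The other epithelial genes were examined next, from a list of 43 junction and keratin genes outside the members. Of these, 33 were listed, 14 were tested, 2 passed as higher with SD70 and 6 as lower, with a median log2 fold change of -0.24. Here and for the other lists, these counts stand beside a background in which 25.8% of all genes tested passed as higher and 24.2% as lower, and nothing particular to a list is read from them. The 19 listed but untested genes held at most 12 counts in any sample. That highest count was of the cadherin gene Cdh3, with 1, 0 and 0 counts in DMSO and 6, 8 and 12 in SD70. Dsp went the other way, with 4, 3 and 7 counts in DMSO and 2, 2 and 0 in SD70. Both are named after their values were seen. Krt8, a keratin of simple epithelia, was the exception to the low epithelial levels, with 3825, 4030 and 3894 normalized counts in DMSO and 2535, 2855 and 2621 in SD70, a fall with a log2 fold change of -0.55 (SE 0.0518, edgeR adjusted p = 3.26e-11). Its partner keratin Krt18 was far lower and also fell, from 87.1 ± 11.3 to 37.1 ± 3.34 normalized counts (SD, n = 3, log2 fold change -1.22, edgeR adjusted p = 2.96e-07), and Krt19 held 1 count in 1 DMSO sample and 0 elsewhere. The desmosomal plakophilins Pkp2 (722 ± 8.40 to 339 ± 29.5, log2 fold change -1.09) and Pkp3 (230.8 ± 13.04 to 125 ± 11.9, log2 fold change -0.88) fell as well. St14, which encodes the epithelial protease matriptase, rose from 188 ± 26.5 to 357 ± 17.6 normalized counts (log2 fold change 0.93, edgeR adjusted p = 3.08e-10). Krt18, Pkp2, Pkp3 and St14 kept direction and call in all 13 alternatives, and Krt8, named as a marker, was left out of this comparison.

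Among 18 epithelial transcription and splicing factors, 14 were listed, 8 were tested, 2 passed as higher and 3 as lower (median log2 fold change -0.09). Klf4, a zinc finger factor of epithelial differentiation, rose from 30.01 ± 3.29 to 107 ± 13.6 normalized counts (SD, n = 3, log2 fold change 1.83, SE 0.176, edgeR adjusted p = 5.66e-11). Elf3, an epithelial ETS factor, went from 160 ± 16.1 to 122 ± 6.76 (log2 fold change -0.40, edgeR adjusted p = 0.00438). The Elf3 call was lost without DMSO sample 1 or 2 or SD70 sample 1 or 2 (edgeR adjusted p from 0.0139 to 0.0262) and with DESeq2's Wald test (adjusted p = 0.0189). Esrp1, a splicing factor restricted to epithelial cells, held 2 counts in SD70 sample 2 and 0 in the other samples. Gata3, Foxa1 and Foxa2 complete the genes that passed and are named after their values were seen. Gata3 rose from 11.3 ± 3.07 to 54.6 ± 9.95 normalized counts, while Foxa1 fell from 64.9 ± 4.89 to 32.6 ± 7.05 and Foxa2 from 56.1 ± 4.91 to 27.6 ± 2.53.

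Of 29 other transcription factors and co-factors of EMT, 25 were listed and 20 tested, of which 6 passed as higher and 6 as lower (median log2 fold change -0.12). Id2 and Id3 encode helix-loop-helix proteins that lack a DNA-binding part and hold E proteins away from DNA. Id3 had normalized counts of 71.1, 79.6 and 83.4 in DMSO and 286, 304 and 344 in SD70. Id2 had 543, 511 and 485 in DMSO and 173, 186 and 124 in SD70. The pair thus moved in opposite directions without overlap, Id3 by a log2 fold change of 1.99 (SE 0.115, edgeR adjusted p = 1.02e-16) and Id2 by -1.66 (SE 0.10, edgeR adjusted p = 5.29e-15). Together with Twist2, described above, Foxc2, a forkhead factor, was the fourth gene named, with 87.4 ± 7.46 normalized counts in DMSO and 130 ± 28.1 in SD70 (log2 fold change 0.57, edgeR adjusted p = 0.00126). The Foxc2 call was lost without SD70 sample 2 (edgeR adjusted p = 0.0193) or SD70 sample 3 (0.0124) and with limma on log2 FPKM values (0.0132 and 0.0129). Prrx1, a mesenchymal homeobox factor chosen after its values were seen, had 4734 ± 354 normalized counts in DMSO and 4748 ± 188 in SD70 with overlapping samples (edgeR adjusted p = 0.951).

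**Figure D4:**
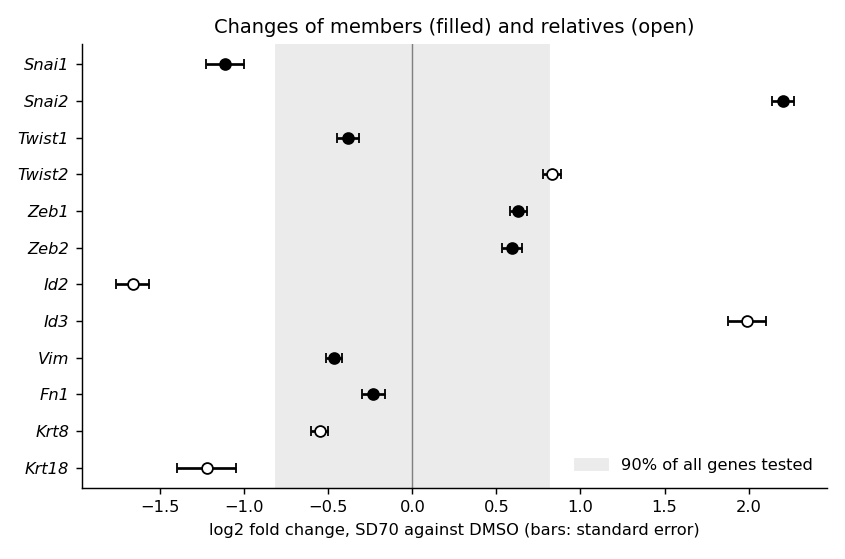
Log2 fold change of SD70 against DMSO with its standard error for the 7 tested members (filled points) and for 5 related genes (open points), with the range that holds 90% of all genes tested shaded. Snai2 (2.20) and Snai1 (-1.11) lie outside the shaded range on opposite sides, and Twist1, Zeb1, Zeb2, Vim and Fn1 lie inside it.

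Of 35 mesenchymal cytoskeleton and surface genes, 34 were listed and 24 tested, of which 3 passed as higher and 11 as lower (median log2 fold change -0.20), against 25.8% and 24.2% of all genes tested. The receptors for platelet-derived growth factor moved apart. Pdgfrb had normalized counts of 552, 561 and 544 in DMSO and 1415, 1608 and 1795 in SD70. Pdgfra had 1801, 1700 and 1758 in DMSO and 928, 859 and 844 in SD70. Neither gene had overlapping groups (log2 fold change 1.54, SE 0.0705, edgeR adjusted p = 2.08e-17 for Pdgfrb and -0.999, SE 0.0572, 9.24e-17 for Pdgfra). Per length, Pdgfrb stood at 0.393 ± 0.0114 times Pdgfra in DMSO and 2.30 ± 0.376 times in SD70 (FPKM, n = 3). Cnn2, an actin-binding calponin, fell from 709 ± 34.2 to 358 ± 35.7 normalized counts (log2 fold change -0.98) and Itgav, an integrin subunit, from 4509 ± 142 to 2883 ± 156 (log2 fold change -0.64).

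Secreted matrix genes were measured from a list of 25, with 24 listed and 15 tested, of which 5 passed as higher and 6 as lower (median log2 fold change 0.15). Fbln5 (40.3 ± 4.53 to 156 ± 31.1 normalized counts, log2 fold change 1.94, edgeR adjusted p = 2.19e-12) and Fbn1 (298 ± 9.97 to 557 ± 16.6, log2 fold change 0.90), 2 genes of elastic fibres, rose. The matricellular gene Ccn1, listed under its older symbol Cyr61, fell from 506 ± 60.3 to 257 ± 10.8 (log2 fold change -0.97, edgeR adjusted p = 8.64e-12).

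TGF-beta is a known inducer of EMT, and 22 of 24 genes of its ligands, receptors, Smads and regulators were tested, with 5 higher and 8 lower (median log2 fold change -0.08). Tgfb3, a ligand, fell from 284 ± 24.5 to 186 ± 15.9 normalized counts (SD, n = 3, log2 fold change -0.61, edgeR adjusted p = 2.72e-06). Zfyve9, the Smad anchor SARA, rose from 1027 ± 53.3 to 1814 ± 74.4 (log2 fold change 0.82), Tgif1, a Smad co-repressor, from 1825 ± 49.5 to 3122 ± 131 (0.77) and Smurf1, a ubiquitin ligase, from 1156 ± 30.3 to 1652 ± 84.1 (0.51). The receptors Tgfbr1 (931 ± 20.7 and 883 ± 39.3) and Tgfbr2 (1107 ± 61.9 and 1044 ± 28.7), chosen after their values were seen, had overlapping samples and did not pass (edgeR adjusted p = 0.275 and 0.213).

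Snail protein is phosphorylated by GSK3-beta and degraded after binding F-box proteins, and it recruits co-repressors, so 27 such partner and turnover genes were examined, of which 26 were listed and all 26 tested, 7 passed as higher and 8 as lower (median log2 fold change -0.06). Gsk3b rose from 1900 ± 82.5 to 2815 ± 103 normalized counts (SD, n = 3, log2 fold change 0.57, edgeR adjusted p = 2.16e-11). Fbxo11, an F-box protein that acts on Snail, rose from 1916 ± 73.4 to 2956 ± 119 (log2 fold change 0.63, edgeR adjusted p = 1.66e-12). Ajuba, a LIM protein co-repressor of Snail, fell from 645 ± 19.5 to 421 ± 9.10 (log2 fold change -0.61), and Pak1, a kinase that phosphorylates Snail, from 884 ± 35.5 to 603 ± 59.5 (-0.55). Protein levels were not measured in these data. The medians of the 7 lists ran from -0.24 to 0.15, beside a median of -0.0043 over all genes tested.

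**Figure D5:**
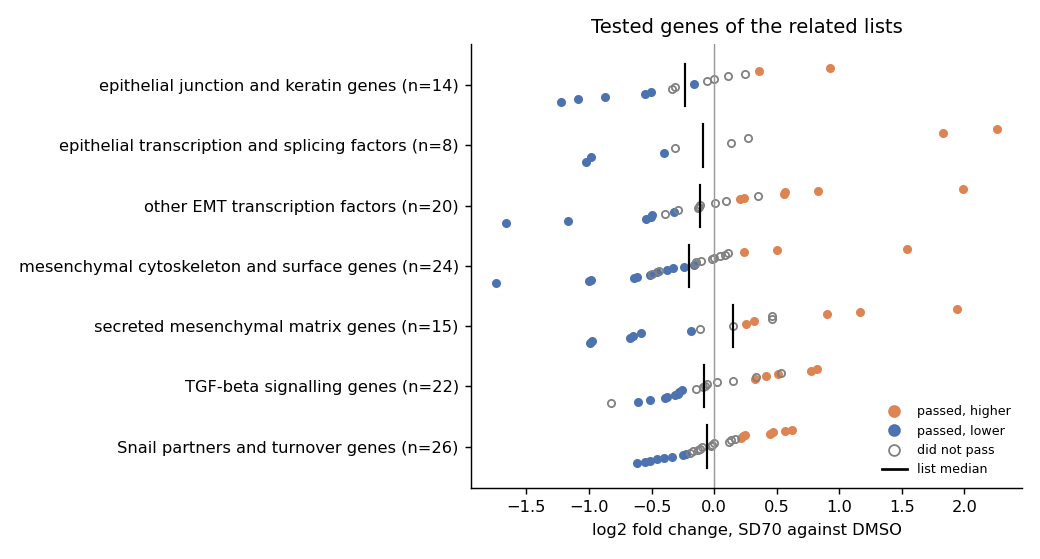
Log2 fold change of SD70 against DMSO for each tested gene of the 7 related lists, with genes that passed as higher or lower coloured, those that did not pass drawn as open circles, and a bar at each list's median. Genes that passed lie on both sides of 0 in all 7 lists, and the medians lie between -0.24 and 0.15.

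Totals were 15276744 to 17060424 counts per sample, with 14062 to 14105 genes above 0, and replicates of a group differed by more than sampling noise in each pair (chi-square per gene 2.12 to 4.97). Kdm4c, whose product SD70 inhibits, had 753 ± 34.6 normalized counts in DMSO and 765 ± 34.2 in SD70 (SD, n = 3, log2 fold change 0.02, SE 0.0638, edgeR adjusted p = 0.769), and an inhibitor need not change the mRNA of its target. The labels describe cultured cells but an extraction from ground tissue, so markers of other cells were summed. Of 12 immune markers, 8 were listed, 3 were tested and none passed, and their summed normalized counts ranged from 93.0 to 102 in DMSO and from 72.6 to 102 in SD70, with the pan-leukocyte gene Ptprc at 0 counts in each DMSO sample and 2, 1 and 2 in SD70. Of 8 endothelial markers, 6 were listed, 1 was tested and did not pass, with sums from 58.5 to 70.0 in DMSO and from 64.5 to 80.3 in SD70. Of 14 lung epithelial markers, 8 were listed and 3 tested, none passed as higher and Hopx and Abca3 passed as lower, with sums from 994 to 1010 in DMSO and from 719 to 809 in SD70. Their part in the members' changes was not tested. Of the 5 epithelial markers Cdh1, Epcam, Krt8, Krt18 and Krt19, only Krt8 and Krt18 lay above the floor of 3 counts, although the labels name the cells lung adenocarcinoma.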

How the data were processed

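Per the study's methods and the labels, poly(A) RNA of 3 DMSO and 3 SD70 samples was sequenced on the BGISEQ-500 platform and aligned to GRCm38.p6 with HISAT. The submitters' processing notes name StringTie 1.3.3b and mm8, a different build. The deposited tables hold no coordinates, and positions here were taken by gene identifier from the RefSeq table of GRCm38.p6. For each gene and sample the authors deposited an expected count, which was not normalized, and an expression value whose header gives no unit. That value is used as deposited by the authors and was read as FPKM from the values themselves. The unit was not tested against transcript lengths.

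Expected counts were rounded, filtered by filterByExpr (11552 genes kept), normalized by TMM (factors 0.984 to 1.02) and compared by the quasi-likelihood test of edgeR 4.0.16 (glmQLFit with robust = TRUE, then glmQLFTest) in R 4.3.3, with Benjamini-Hochberg adjustment over all genes tested. Genes passed at an adjusted p-value under 0.01, and the fold minimum was an absolute log2 fold change of 1. A normalized count is a count scaled to the mean effective library size. The 3 samples per group limit the precision, and intervals of low counts cover counting error only. The test was checked on simulated data.

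The 10 members, the 7 related lists and 3 marker lists, the rule for named genes and the alternatives were chosen with earlier results of these data known. Named were all members, Kdm4c, in each related list up to 4 genes that passed with the largest absolute log2 fold change, provided their normalized counts averaged 50 or more, and markers. Alternatives were DESeq2 1.42.0 size factors, other filters on low counts, the replicate number as a block, DESeq2's Wald test, limma 3.58.1 on log2(FPKM + 1) and log2(FPKM + 0.1), each sample left out in turn and a threshold of 0.05. The marker Nkx2-1 and other unlisted genes were not analysed here. The values of 1 gene that the rule names are not reported here.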

Additional observations from a re-analysis of the deposited data

How the results depend on the processing

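Snai1, Snai2, Twist1, Zeb1, Zeb2 and Vim kept their direction and passed in all 13 alternatives run for named genes, with log2 fold changes from -1.17 to -0.98 for Snai1, 2.13 to 2.28 for Snai2, -0.42 to -0.33 for Twist1, 0.57 to 0.66 for Zeb1, 0.53 to 0.64 for Zeb2 and -0.52 to -0.43 for Vim. Between 6 and 7 members passed, Fn1 being the one lost. With limma on log2(FPKM + 1) the members past the fold minimum went from 2 to 1 (Snai1 was left out) and all genes past it from 681 to 283. With limma on log2(FPKM + 0.1) these were 2 and 565. These 2 limma fits differ from each other in the pseudocount alone. From edgeR on counts, test, unit and pseudocount differ together, and the cause of that difference was not tested. Of 429 values for 33 named genes, 415 kept direction and side of the threshold, 14 (Fn1, Elf3 and Foxc2) no longer passed and 0 reversed. With the replicate number as a block, 7 members passed, 2 of them past the fold minimum, and 5913 of all genes passed. Deviations of same-numbered samples correlated at 0.113, -0.0162 and 0.0142 over 10620 genes, and those of differently numbered samples at -0.140 to 0.135. No strong effect shared by same-numbered samples was seen, but such correlations cannot tell whether the samples were handled in pairs. Leaving out each sample in turn left 5105 to 5346 of all genes passing, against 5767 with all 6. Depth limits Cdh1, Epcam and Cdh2, for which no fold change is given.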

Other observations

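Several genes outside the named rule belong to the same gene groups and are given as values, chosen after they were seen. Among the Yap and Tead co-factors of EMT, Tead1 (log2 fold change 0.24) and Yap1 (0.20) passed as higher with SD70, and Tead2 (-0.55), Tead3 (-0.50) and Wwtr1 (-0.32) as lower in edgeR's test. The E protein genes Tcf4, Tcf12 and Tcf3, whose products pair with Twist proteins, had normalized counts of 2649 ± 87.3, 6182 ± 23.3 and 859 ± 42.9 in DMSO and 3902 ± 128, 6599 ± 140 and 791 ± 38.3 in SD70 (SD, n = 3), and Tcf4 passed (log2 fold change 0.56, edgeR adjusted p = 1.02e-11) while Tcf12 and Tcf3 did not (edgeR adjusted p = 0.0857 and 0.102). Cd44, a surface glycoprotein often high in mesenchymal tumour cells, fell from 6771 ± 523 to 5397 ± 88.1 normalized counts (log2 fold change -0.33, edgeR adjusted p = 1.90e-06). S100a4, a calcium-binding protein of mesenchymal cells, had 3107 ± 391 in DMSO and 2794 ± 569 in SD70 with overlapping samples (edgeR adjusted p = 0.552). The smooth muscle actin gene Acta2 held at most 10 counts in any sample and was not tested.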
